A study of Mus musculus with 10 samples.

Results

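The genes described here encode the ligands of transforming growth factor beta (Tgfb1, Tgfb2 and Tgfb3), their receptors (Tgfbr1, Tgfbr2 and Tgfbr3) and the latent TGF-beta binding proteins (Ltbp1, Ltbp2, Ltbp3 and Ltbp4). They were chosen by symbol, through the Ensembl gene IDs of the count table, and all 10 of the 10 symbols were found among the 54446 genes of the series. All 10 also passed the filter on low counts that left 15181 tested genes. Poly(A) RNA was sequenced from primary smooth muscle cells of mouse aorta, in 5 libraries from WWv mice, which carry W on one Kit allele and Wv on the other, and 5 libraries from wild type mice (WT). Both groups were collagenase-released aortic cells grown in culture to passage 2, with no further treatment in the labels. The labels give neither the age, sex and strain of the mice nor a batch. The protocol names 5 mice per genotype, but the labels do not tie each library to a single mouse. The W and Wv alleles are germline and impair c-Kit in every cell of the mouse, so the genotype was not restricted to smooth muscle.

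TGF-beta is secreted as an inactive complex in which the growth factor stays bound to its own propeptide, and a latent TGF-beta binding protein ties this complex to fibrillin microfibrils and fibronectin. Integrins and proteases release the active ligand, which binds the type II receptor. That receptor then phosphorylates the type I receptor, which activates the SMAD2 and SMAD3 transcription factors. In the aortic wall the pathway promotes contractile gene expression and matrix synthesis in smooth muscle, and inherited defects of its ligands and receptors cause aneurysm of the aorta in humans.

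Library totals ranged from 42040255 to 53863661 counts. Kit itself averaged 2.00 ± 0.764 CPM (counts scaled to the TMM-adjusted library total) in WWv and 4.12 ± 0.629 CPM in WT (SD, n = 5 each), a log2 fold change of −1.04 ± 0.25 (SE, edgeR adjusted p = 0.0122) with no overlap, and the call was lost with a cell cycle score in the fit (−1.16, adjusted p = 0.0536, range over the alternatives 0.000447 to 0.0536). Kitl, the gene of its ligand, averaged 29.9 ± 6.16 CPM in WWv and 67.7 ± 16.4 CPM in WT. Over all tested genes, 28.2% were past an edgeR adjusted p of 0.05, with 1940 higher (12.8%) and 2334 lower (15.4%) in WWv. Scaling by library size only gave 983 higher and 3599 lower. On the first principal component WWv lay at 11.5 to 33.4, WT 2 at 20.2 and the other WT libraries at −51.1 to −29.1. Among the 10 TGF-beta genes WT 2 was the lowest WT library in 7 and the highest in 2, so values of these genes without it are given wherever they change a call. All 10 smooth muscle markers were expressed, led by Acta2 (11395 ± 879 CPM in WWv and 6777 ± 815 CPM in WT) and Tagln, and 7 of the 10 were past the threshold and higher in WWv.

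Of the 10 genes, 3 rose in WWv (Tgfb1, Tgfb3 and Tgfbr1) and 1 fell (Tgfbr3), which is 4 genes beside the 28.2% of all tested genes. No latent binding protein gene passed. The median log2 fold change was 0.04 over the 10 genes and −0.01 over all tested genes. The genes whose groups did not overlap were Tgfb1 and Tgfb3, above, and Tgfbr3, below, where 15.9% of all tested genes showed such a separation (8.03% above and 7.84% below).

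**Figure D1:**
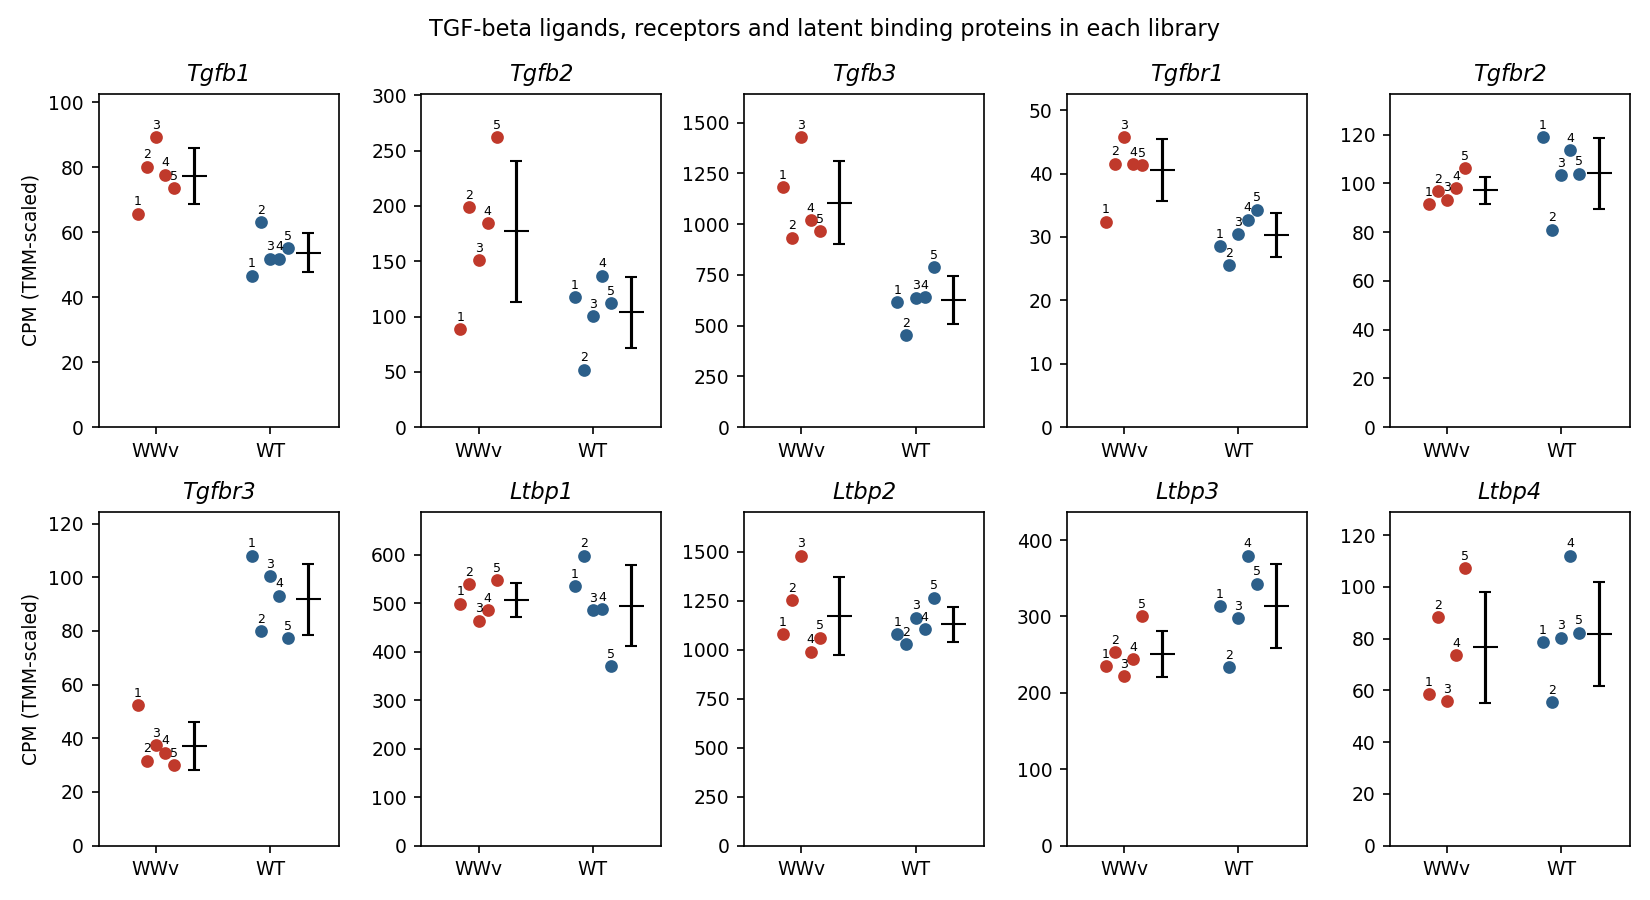
Level of each gene in each library, in TMM-scaled CPM on a linear axis that starts at 0, with WWv libraries in red and WT libraries in blue, numbered by replicate. Black bars are the mean and SD of 5 libraries. The 5 WWv libraries lie above all WT libraries for Tgfb1 and Tgfb3 and below them for Tgfbr3.

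Promoter windows were available for 8 of the 10 genes, all but Tgfb3 and Tgfbr3, from RefSeq on GRCm38.p6. The table lists 2 windows for Tgfbr1, of which the nearest to the annotated start is used. Each window runs from 250 bases before the start of the gene to 50 after it. Those of Tgfb1 and Tgfbr1, the higher genes with a window, are printed with that of Tgfb2, which differs from them in composition. Capitals mark the motifs GGGCGG, which SP1 binds, and CAGAC, the core of the SMAD binding element, each searched on both strands, and TATAAA, the binding sequence of the basal machinery, searched on the gene's strand.
Tgfb1 promoter, chr7:25686752-25687051, plus strand: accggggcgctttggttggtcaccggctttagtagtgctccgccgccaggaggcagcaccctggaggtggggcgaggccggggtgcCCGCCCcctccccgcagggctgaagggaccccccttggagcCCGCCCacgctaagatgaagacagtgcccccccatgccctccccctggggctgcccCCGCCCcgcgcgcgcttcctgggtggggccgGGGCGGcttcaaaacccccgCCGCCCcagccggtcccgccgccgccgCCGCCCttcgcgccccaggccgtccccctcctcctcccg
Tgfbr1 promoter, chr4:47352972-47353271, plus strand: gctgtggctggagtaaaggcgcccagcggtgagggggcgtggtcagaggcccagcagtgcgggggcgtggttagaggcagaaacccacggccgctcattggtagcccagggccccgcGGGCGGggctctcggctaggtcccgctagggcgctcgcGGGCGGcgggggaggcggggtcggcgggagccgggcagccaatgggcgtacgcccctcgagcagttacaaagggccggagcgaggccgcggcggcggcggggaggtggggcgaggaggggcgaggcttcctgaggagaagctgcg
Tgfb2 promoter, chr1:186705940-186706239, minus strand: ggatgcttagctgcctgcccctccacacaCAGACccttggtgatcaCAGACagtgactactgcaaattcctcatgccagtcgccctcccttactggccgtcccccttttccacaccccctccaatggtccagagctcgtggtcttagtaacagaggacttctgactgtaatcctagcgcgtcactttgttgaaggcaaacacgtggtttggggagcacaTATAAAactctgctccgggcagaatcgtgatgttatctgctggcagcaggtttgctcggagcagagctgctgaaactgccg
The Tgfb1 window is 77.0% G or C and holds GGGCGG 6 times, and the Tgfbr1 window is 74.7% G or C and holds it 2 times. Neither has TATAAA or CAGAC. The Tgfb2 window is 54.3% G or C, with TATAAA beginning 31 bases before the start, CAGAC beginning 221 and 204 bases before it, and no GGGCGG. Over 32851 promoter windows, GGGCGG occurred in 35.7%, CAGAC in 49.6% and TATAAA in 8.32%, and the median content of G and C was 52.7%. No marked motif overlaps another in these windows. The letters are a description of the windows and were not linked to the changes.

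Tgfb1 and Tgfb3 transcripts were higher in WWv cells, by 1.44-fold and 1.76-fold. Tgfb2 was on average 1.71-fold higher but did not pass. The TGF-beta isoforms are made as separate genes and signal through the same receptors, and TGF-beta 2 depends more than the others on the coreceptor betaglycan.

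Tgfb1 (ENSMUSG00000002603.15, chromosome 7, 25687002 to 25705077, plus strand, mm10) encodes the isoform best known from immune regulation and fibrosis. It stood at 65.7, 80.1, 89.2, 77.7 and 73.4 CPM in WWv libraries 1 to 5, against 46.6, 63.0, 51.9, 51.9 and 55.1 CPM in WT libraries 1 to 5. The groups did not overlap, although WWv 1 and WT 2 came close to each other. The means were 77.2 ± 8.66 CPM in WWv and 53.7 ± 6.03 CPM in WT (SD, n = 5 each), a log2 fold change of 0.53 ± 0.09 (SE, edgeR adjusted p = 0.00294). A fit that held a score of cell cycle genes as a covariate left 0.36, short of the threshold (adjusted p = 0.0787, where the 19 alternatives ranged from 8.18e-06 to 0.0787).

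Tgfb2 (ENSMUSG00000039239.14, chromosome 1, 186622792 to 186705989, minus strand) encodes the isoform needed for development of the heart and outflow tract. It stood at 88.3, 199, 151, 184 and 262 CPM in WWv libraries 1 to 5, against 117, 52.0, 100.4, 137 and 112 CPM in WT libraries 1 to 5. Here 4 of the 5 WWv libraries lay above every WT library, and WWv 1 lay below 4 of them. The means were 177 ± 63.9 CPM in WWv and 104 ± 31.8 CPM in WT, and the log2 fold change of 0.77 ± 0.29 did not pass (edgeR adjusted p = 0.0694). Without WWv 1 it passed at 0.94 (adjusted p = 0.0199), and without both WT 2 and WWv 1 at 0.77 (adjusted p = 0.00223). DESeq2 also called it (0.77, adjusted p = 0.0212), and over the 19 alternatives the adjusted p ranged from 0.00223 to 0.152. Tgfb2 varied most within the groups of all 10 genes, with a coefficient of variation of 36.1% in WWv and 30.6% in WT.

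Tgfb3 (ENSMUSG00000021253.7, chromosome 12, 86056745 to 86079041, minus strand) encodes the isoform known for its part in palate closure and wound repair. It stood at 1182, 934, 1429.5, 1019 and 964 CPM in WWv libraries 1 to 5, against 616, 454, 638, 640.4 and 788 CPM in WT libraries 1 to 5. Every WWv library lay above every WT library, with WT 2 the lowest of the 10. The means were 1106 ± 205 CPM in WWv and 627 ± 119 CPM in WT, a log2 fold change of 0.82 ± 0.15 (edgeR adjusted p = 0.0037). All 19 alternatives kept the call, from 0.69 without WT 2 and WWv 1 to 1.23 with the cell cycle score. Exons of Gm37804 and Gm48008 overlap 4.82% and 7.6% of its exon bases on the opposite strand, and neither gene had more than 69 counts in a library, against at least 21051 for Tgfb3.

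Tgfb3 supplied most of the ligand transcript in both groups. Per kilobase of exon it made up 87.4 ± 4.11% of the summed level of the ligand genes in WWv and 86.6 ± 1.39% in WT. Tgfb2 took 8.48 ± 3.68% in WWv and 8.26 ± 1.89% in WT, and Tgfb1 took 4.15 ± 0.551% in WWv and 5.18 ± 1.61% in WT. The summed level of the ligand genes was 373 ± 55.5 CPM per kilobase in WWv and 214 ± 38.5 CPM per kilobase in WT, so the total was higher while its make-up stayed within the spread of the libraries.

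The receptor genes moved apart. Tgfbr1, the type I receptor kinase, rose 1.34-fold, Tgfbr2, the type II receptor kinase, did not pass, and Tgfbr3, the coreceptor betaglycan that presents ligand to the kinases, fell 2.47-fold. Betaglycan has no kinase activity of its own, and its shed ectodomain can bind and sequester TGF-beta.

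Tgfbr1 (ENSMUSG00000007613.15, chromosome 4, 47353222 to 47414931, plus strand) stood at 32.4, 41.6, 45.8, 41.5 and 41.3 CPM in WWv libraries 1 to 5, against 28.5, 25.5, 30.4, 32.7 and 34.3 CPM in WT libraries 1 to 5. All WWv libraries but WWv 1 lay above every WT library, and WWv 1 lay within the WT range. The means were 40.5 ± 4.89 CPM in WWv and 30.3 ± 3.47 CPM in WT, a log2 fold change of 0.42 ± 0.10 (edgeR adjusted p = 0.0115). All 19 alternatives kept the call, from 0.34 to 0.58.

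Tgfbr2 (ENSMUSG00000032440.13, chromosome 9, 116084293 to 116175360, minus strand) stood at 91.5, 96.8, 93.3, 98.1 and 106 CPM in WWv libraries 1 to 5, against 119, 81.1, 103, 114 and 104 CPM in WT libraries 1 to 5. The groups overlapped, with WT 2 the lowest library of all. The means were 97.2 ± 5.65 CPM in WWv and 104 ± 14.5 CPM in WT, and the log2 fold change of −0.10 ± 0.09 did not pass (edgeR adjusted p = 0.428). Without WT 2 it was past the threshold at −0.18 (adjusted p = 0.0272), as it was without both WT 2 and WWv 1 at −0.16 (adjusted p = 0.0419, range over the 19 alternatives 0.0272 to 0.734).

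Tgfbr3 (ENSMUSG00000029287.14, chromosome 5, 107106570 to 107289629, minus strand) stood at 52.3, 31.7, 37.4, 34.7 and 30.0 CPM in WWv libraries 1 to 5, against 108, 80.0, 100.5, 93.1 and 77.3 CPM in WT libraries 1 to 5. The groups were far apart, with the highest WWv library, WWv 1, below the lowest WT library, WT 5. The means were 37.2 ± 8.89 CPM in WWv and 91.8 ± 13.2 CPM in WT, a log2 fold change of −1.30 ± 0.15 (edgeR adjusted p = 0.000468). All 19 alternatives kept the call, from −1.51 without WT 2 and WWv 1 to −1.11 with the cell cycle score. WT 2, which lay with WWv on the first principal component, had 80.0 CPM of Tgfbr3 and so lay with the other WT libraries. Exons of Gm43422 cover 4.54% of its exon bases on the same strand, and that gene had at most 8 counts in a library.

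Per kilobase of exon, Tgfbr3 made up 23.9 ± 5.41% of the summed level of the receptor genes in WWv and 44.7 ± 3.27% in WT. Tgfbr2 took 49.99 ± 3.23% in WWv and 40.5 ± 2.03% in WT, and Tgfbr1 took 26.1 ± 3.26% in WWv and 14.9 ± 1.92% in WT. The ratio of Tgfbr3 to Tgfbr2 per kilobase was 0.354 to 0.714 in WWv and 0.930 to 1.23 in WT, with no overlap. The ratio of Tgfbr2 to Tgfbr1 was 1.63 to 2.25 in WWv and 2.42 to 3.33 in WT. These shares and ratios are built from the genes tested above and are given without a test. The receptor sum was 23.8 ± 0.455 CPM per kilobase in WWv and 31.4 ± 3.61 CPM per kilobase in WT.

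The latent binding protein genes gave 0 calls among 4 genes by edgeR, with 1 (Ltbp3) at an unadjusted p under 0.05, 1 by DESeq2 and 0 by limma-voom. LTBP-1 and LTBP-3 bind the latent complexes of TGF-beta covalently, LTBP-4 does so weakly and serves elastic fibre assembly, and LTBP-2 does not bind latent TGF-beta and acts in the microfibrils themselves.

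Ltbp1 (ENSMUSG00000001870.15, chromosome 17, 75005568 to 75392512, plus strand) averaged 507 ± 35.4 CPM in WWv and 495 ± 83.8 CPM in WT. It ranged from 463 to 547 CPM in WWv, inside the 369 to 598 CPM of WT, and the log2 fold change was 0.03 ± 0.11 (edgeR adjusted p = 0.841). Ltbp2 (ENSMUSG00000002020.15, chromosome 12, 84783212 to 84876532, minus strand) averaged 1172 ± 197 CPM in WWv and 1128 ± 90.4 CPM in WT, with a log2 fold change of 0.06 ± 0.11 (adjusted p = 0.732). WWv 3, at 1479.6 CPM, was the highest library for Ltbp2, and WWv 4, at 989 CPM, the lowest. Exons of the antisense gene D030025P21Rik overlap 9.34% of its exon bases, with at most 208 counts of that gene in a library.

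Ltbp3 (ENSMUSG00000024940.10, chromosome 19, 5740904 to 5758532, plus strand) stood at 235, 253, 222, 244 and 300.1 CPM in WWv libraries 1 to 5, against 314, 233, 298, 379.8 and 343 CPM in WT libraries 1 to 5. All 5 WWv libraries lay below the WT mean, and WT 2 and WT 3 lay within their range. The log2 fold change of −0.32 ± 0.12 did not pass (edgeR adjusted p = 0.0707). It passed without WT 2 (−0.41, adjusted p = 0.00448), without WWv 5 (−0.40, adjusted p = 0.033) and without both WT 2 and WWv 1 (−0.39, adjusted p = 0.00795). Scaling by library size only (−0.40, adjusted p = 0.024) and DESeq2 (−0.32, adjusted p = 0.0417) called it as well, while the cell cycle score left −0.01 (adjusted p = 0.967).

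Ltbp4 (ENSMUSG00000040488.17, chromosome 7, 27305136 to 27337692, minus strand) stood at 58.5, 88.3, 55.8, 73.6 and 107 CPM in WWv libraries 1 to 5, against 78.7, 55.4, 80.4, 112 and 82.4 CPM in WT libraries 1 to 5. Both groups spanned almost the same range, and the summed level of the latent binding protein genes was likewise 230.1 ± 21.8 CPM per kilobase in WWv and 231 ± 9.86 CPM per kilobase in WT. The log2 fold change was −0.09 ± 0.21 (edgeR adjusted p = 0.766), the least precise estimate among the latent binding proteins.

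**Figure D2:**
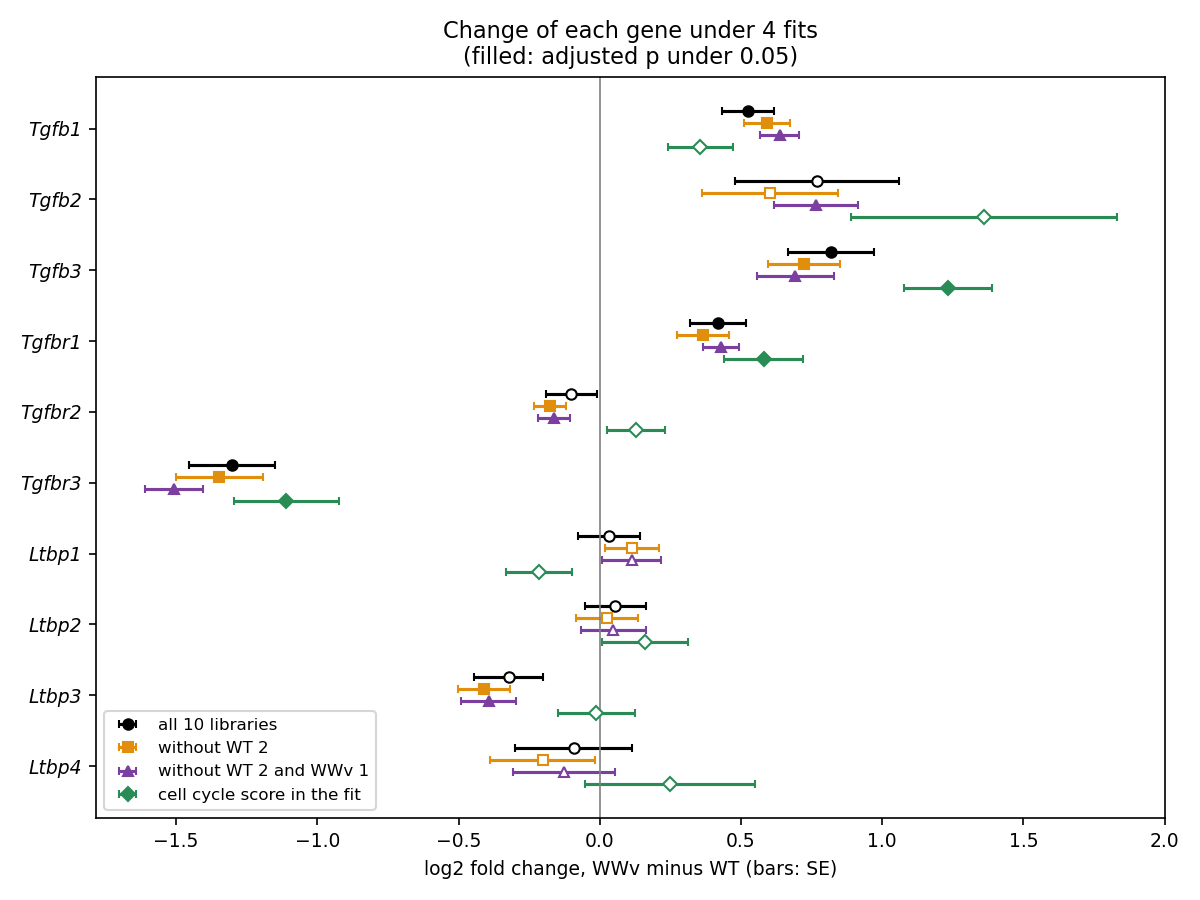
Log2 fold change of each gene, WWv minus WT, with its SE, in the fit of all 10 libraries, without WT 2, without WT 2 and WWv 1, and with the mean log2 CPM of cell cycle genes as a covariate. Filled symbols are past an adjusted p of 0.05. Tgfb3, Tgfbr1 and Tgfbr3 are filled in all 4 fits, and Tgfb1 is open with the cell cycle score.

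Set beside each other as levels per kilobase of exon, the genes spanned a wide range. Tgfb3 led both groups, at 327 ± 60.5 CPM per kilobase in WWv and 185 ± 35.1 in WT, and its mean over all libraries was above that of 99.2% of tested genes. Ltbp2 followed at 143 ± 24.1 CPM per kilobase in WWv and 138 ± 11.05 in WT, and Ltbp1 at 47.4 ± 3.31 in WWv and 46.3 ± 7.83 in WT. Tgfb3 was above Ltbp2 in 5 of 5 libraries of each group, although their ranges overlapped in WT.

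The order below Ltbp1 differed between the groups. In WWv it ran Tgfb2, Ltbp3, Tgfb1, Tgfbr2, Ltbp4, Tgfbr1 and Tgfbr3, where Tgfbr3 was last at 5.69 ± 1.36 CPM per kilobase. In WT it ran Ltbp3, Tgfb2, Tgfbr3, Tgfbr2, Ltbp4, Tgfb1 and Tgfbr1, where Tgfbr3 led the receptors at 14.0 ± 2.01 CPM per kilobase and Tgfbr1 was last at 4.64 ± 0.531. Neighbours whose ranges overlapped in WWv were Ltbp1 and Tgfb2, Tgfb2 and Ltbp3, Tgfbr2 and Ltbp4, and Tgfbr1 and Tgfbr3. In WT the ranges also overlapped between Ltbp1 and Ltbp3 and along the run of Tgfb2, Tgfbr3, Tgfbr2, Ltbp4 and Tgfb1, so the order there was not resolved beyond the spread of the libraries.

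**Figure D3:**
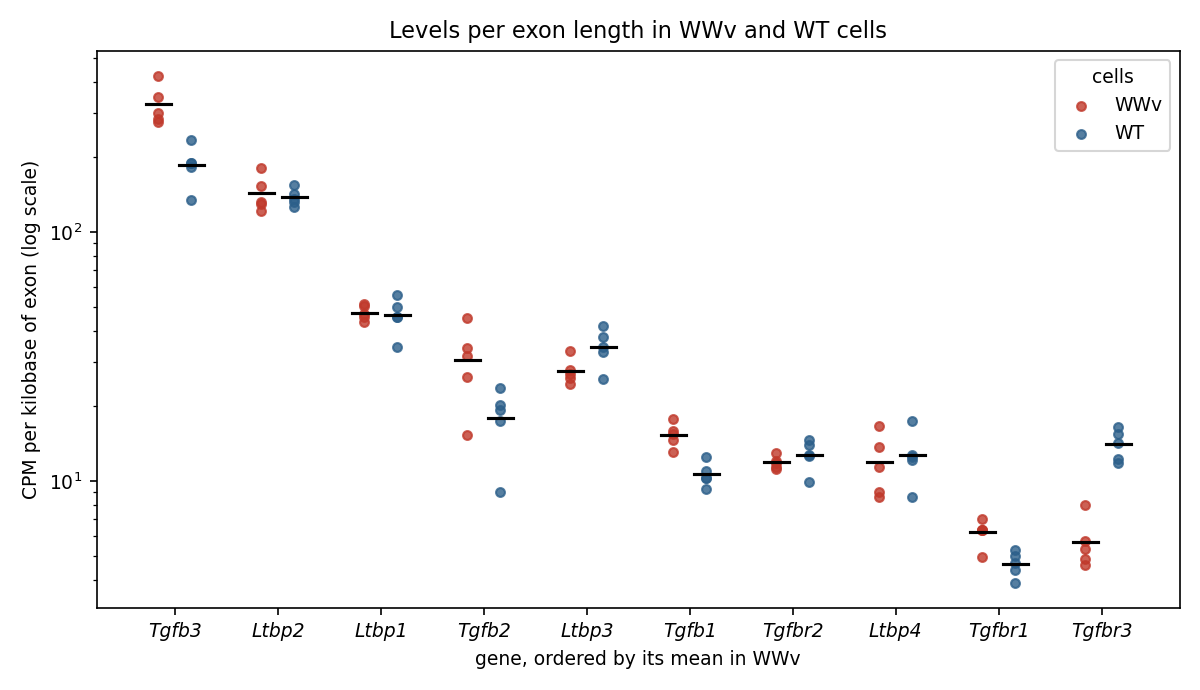
Level of each gene per kilobase of annotated exon on a log axis, ordered by the mean in WWv cells, with 1 point per library and a bar at the mean of 5. WWv is in red, left of WT in blue. Tgfb3 is the highest in both groups, and Tgfbr3 is the lowest of the 10 in WWv and the highest of the receptor genes in WT.

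The profiles of Tgfb3 and Tgfbr3 over the 10 libraries were compared with those of 12573 tested genes of at least 1 CPM, after each was scaled to mean 0 and SD 1 on the log2 CPM scale. Most like Tgfb3, by the root mean square difference, were Csrp1 (0.225), which encodes a LIM protein of the actin cytoskeleton, Fam53a (0.233) and Afap1 (0.240), which encodes an actin filament-associated protein. Csrp1 averaged 735 ± 76.6 CPM in WWv and 532 ± 88.2 CPM in WT, and its level was higher by 0.47 ± 0.11 on the log2 scale. Most like Tgfbr3 were Rbm4b (0.160), a splicing regulator, Dapk1 (0.176), a death-associated kinase, and Lpcat3 (0.180), a phospholipid acyltransferase. Dapk1 averaged 54.8 ± 8.31 CPM in WWv and 81.6 ± 4.49 CPM in WT. All of these likenesses include the difference between the groups and share the depth of the same libraries.

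Genes listed around the activation of latent TGF-beta rose in 7 of 20 tested members and fell in 2, with a median log2 fold change of 0.12. Over all tested genes 12.8% were higher and 15.4% lower. Not every listed gene is an activator, and activation itself was not measured. Itgb1, the integrin subunit beta 1, stood at 3349.9 ± 159 CPM in WWv and 2223 ± 135 CPM in WT (log2 fold change 0.59 ± 0.06, edgeR adjusted p = 0.000351). Its partner subunit Itgav rose by 0.54, and Itgb3, Thbs1 (thrombospondin 1) and Mmp14 were the other adhesion and protease genes past the threshold. The secreted serine protease gene Htra1 rose by 0.94 ± 0.22, and Plau, the urokinase gene, by 0.75 ± 0.20.

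Itgb8, whose integrin with subunit alpha v is an activator of latent TGF-beta, fell by 1.86 ± 0.44 on the log2 scale, at 2.80 ± 1.28 CPM in WWv and 10.2 ± 4.58 CPM in WT (adjusted p = 0.0115). WT 2 had 2.39 CPM of Itgb8, within the WWv range. Plat, the tissue plasminogen activator gene, fell by 0.98 ± 0.14. Members that rose numbered 3 without WT 1 or WT 3 and 4 without WWv 2, WWv 3 or WWv 4, and members that fell numbered 5 without WT 2. Scaling by library size only gave 4 higher and 4 lower. Over all genes, 3620 were lower without WT 2, and library size only gave 983 higher and 3599 lower. Plau lost its call without WT 1 (0.71) and without WT 3 (0.72). Itgb3, Thbs1 and Mmp14 stayed past the threshold when WT 2 or WWv 1 was left out. Thbs1 fell short whenever any other library was left out. Itgb3 also passed when WT 4 or WT 5 was omitted, and Mmp14 when WT 5 or WWv 5 was. Scaling by library size only ended the calls of Itgb3, Thbs1 and Mmp14, and the replicate block those of Thbs1 and Mmp14. With the cell cycle score Itgb8 (−0.46), Htra1 (0.72), Plau (0.33) and Itgb3 lost theirs.

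Microfibril and matrix partners of the latent complex gave 0 higher and 8 lower of 21 tested by edgeR, beside 15.4% lower over all tested genes, with 0 higher and 10 lower at an unadjusted p under 0.05. DESeq2 gave 0 and 10 and limma-voom 0 and 5. Lower members numbered 6 without WT 1, WT 4, WT 5 or WWv 2, 10 without WT 2, and 7 or 8 without any other single library. Over all genes, 3620 were lower without WT 2, against 2334 with all libraries. The abundant partners did not pass: Fbn1, the main fibrillin of the adult aorta, stood at 1742 ± 166 CPM in WWv and 1606 ± 170 CPM in WT, and Fn1, fibronectin, at 23611 ± 3637 CPM in WWv and 19289.8 ± 3391 CPM in WT, both chosen after their values were seen. Those that fell were mostly at lower levels. Fbln1, fibulin 1, averaged 8.95 ± 0.593 CPM in WWv and 22.8 ± 2.03 CPM in WT (log2 fold change −1.35 ± 0.07, adjusted p = 1.1e-05).

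Mfap2, a microfibril-associated glycoprotein gene, fell by 1.55 ± 0.15 on the log2 scale. Fbn2, the fibrillin of development, fell by 1.87 ± 0.38, at 0.625 ± 0.218 CPM in WWv and 2.30 ± 1.14 CPM in WT. The small proteoglycan genes Lum (−4.02 ± 0.66) and Dcn (−1.76 ± 0.48), whose products can bind TGF-beta or collagen, fell too. WT 2 lay low for both, at 2.63 CPM of Lum and 21.2 CPM of Dcn, and the groups overlapped. Lum and Dcn are also markers of adventitial fibroblasts. Lum (−3.60) and Dcn (−1.503) lost their calls with limma-voom, Dcn without WWv 2 (−1.66), and Lum (−1.25), Fbn2 (−1.76) and Dcn (0.18) with the cell cycle score. Emilin1 was not called without WT 1, WT 4 or WT 5. Efemp2 was not called without any single library other than WT 2, nor with limma-voom, the replicate block or no filter on low counts. Emilin1, Efemp1 and Efemp2 were not called with the cell cycle score. The median of the list was −0.27, and with that score it was 0.29, with 2 lower members.

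Other receptors of the family rose in 4 of 13 tested members and fell in 1, beside 12.8% higher and 15.4% lower over all tested genes. Acvr1b, the type I activin receptor, averaged 14.6 ± 1.19 CPM in WWv and 33.2 ± 10.1 CPM in WT (log2 fold change −1.18 ± 0.20, edgeR adjusted p = 0.00244), with WT 2 the lowest of WT at 17.2 CPM. Acvr1, a type I receptor for bone morphogenetic proteins, rose by 0.33 ± 0.05 with tight groups, at 82.9 ± 5.11 CPM in WWv and 66.1 ± 0.949 CPM in WT. Eng, the coreceptor endoglin, rose by 0.22 ± 0.05, Bmpr2 by 0.30 ± 0.08 and Cd109, a TGF-beta coreceptor that inhibits signalling, by 0.55 ± 0.16. Scaling by library size only ended the calls of Eng (0.14) and Cd109 (0.46) and turned the median of the list to −0.01, against 0.07. Cd109 was also lost without WT 3 (0.55), WT 4 (0.50), WWv 2 (0.54), WWv 4 (0.53) or WWv 5 (0.50). With the cell cycle score Acvr1b (−0.46), Cd109 (0.15), Bmpr2 (0.36) and Eng (0.16) lost theirs. Without WT 2 the lower members were 2, where 3620 of all genes were lower, against 2334 with all libraries.

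SMADs and their regulators rose in 7 of 21 members and fell in 2, beside 12.8% higher and 15.4% lower over all tested genes. Smad2, which carries TGF-beta signals, rose by 0.28 ± 0.04, at 46.0 ± 1.596 CPM in WWv and 37.96 ± 1.48 CPM in WT (edgeR adjusted p = 0.0017). Smad1, which carries bone morphogenetic protein signals, fell by 0.39 ± 0.05, at 33.7 ± 1.35 CPM in WWv and 44.3 ± 2.97 CPM in WT (adjusted p = 0.001). Neither group pair overlapped. Smad3, named with SMAD2 above, did not pass (−0.09, edgeR adjusted p = 0.284). Smad4 (0.02, adjusted p = 0.741), Smad5 (−0.01, adjusted p = 0.842) and Smad9 (0.26, adjusted p = 0.272) did not pass either. Smad9 was called higher only when WT 2 was left out, alone or with WWv 1. Smad3, Smad4, Smad5 and Smad9 were named after their values were seen. The corepressor genes Skil (0.30 ± 0.06) and Tgif1 (0.36 ± 0.08) and the inhibitory Smad6 (0.24 ± 0.06) were higher. Without WT 2 there were 12 higher members, with DESeq2 11, with library size only 3 and with the cell cycle score 2. Over all genes those settings gave 3507, 2293, 983 and 801 higher, against 1940 in the main fit. Higher members numbered 6 without any single library other than WT 2, with Usp15 lost each time. Over all genes those fits gave 1286 to 1806 higher. With no filter on low counts 5 members were higher and 1 lower, where 1490 of all genes were higher and 2081 lower. Lower members numbered 1 without WT 1, WT 3, WWv 1, WWv 3 or WWv 4. Smad6 lost its call with library size only (0.16) and with the cell cycle score (0.26), and Tgif1 with that score (0.17).

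Genes known to respond to TGF-beta rose in 9 of 29 members and fell in 0 by edgeR, with 9 higher and 1 lower at an unadjusted p under 0.05, 9 and 1 by DESeq2 and 9 and 0 by limma-voom. Over all tested genes 12.8% were higher and 28.2% were called in either direction. The list shares Ltbp2 with the genes described here and Smad7, Skil and Bambi with the lists above. Cdkn2b, a cell cycle inhibitor, rose by 0.65 ± 0.13, at 40.2 ± 1.42 CPM in WWv and 25.7 ± 5.54 CPM in WT (edgeR adjusted p = 0.00579). Pmepa1, a feedback inhibitor of SMAD signalling, rose by 0.53 ± 0.10, Col4a1, a basement membrane collagen, by 0.47 ± 0.09 and Timp1, an inhibitor of matrix metalloproteinases, by 0.40 ± 0.07. Of the 29 members 9 had every WWv library above every WT library, as did 8.03% of all tested genes. They were the same 9 that passed. The separation and the call come from the same values, so neither adds to the other.

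None of the fibrillar collagen genes of the same list passed the threshold in the main edgeR fit. Col1a1 averaged 8415 ± 923 CPM in WWv and 8908 ± 2197 CPM in WT, and Col3a1 stood at 1015 ± 106 CPM in WWv and 1711 ± 708 CPM in WT (edgeR adjusted p = 0.0519). Col5a1 averaged 3032 ± 162 CPM in WWv and 2795 ± 509 CPM in WT and was called higher with the cell cycle score. These 3 genes were named after their values were seen. Without WT 2, 3 members were lower (Id3, Col1a2 and Col3a1), where 3620 of all genes were lower, against 2334 with all libraries. Col3a1 was also called lower with library size only, either other filter on low counts, DESeq2, and without both WT 2 and WWv 1. It was not called with limma-voom, the replicate block or the cell cycle score, nor without any single library other than WT 2. The median of the list was 0.07 and turned to −0.02 with library size only. With the cell cycle score Timp1 (0.33) lost its call, while Cdkn2b, Pmepa1 and Col4a1 kept theirs.

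**Figure D4:**
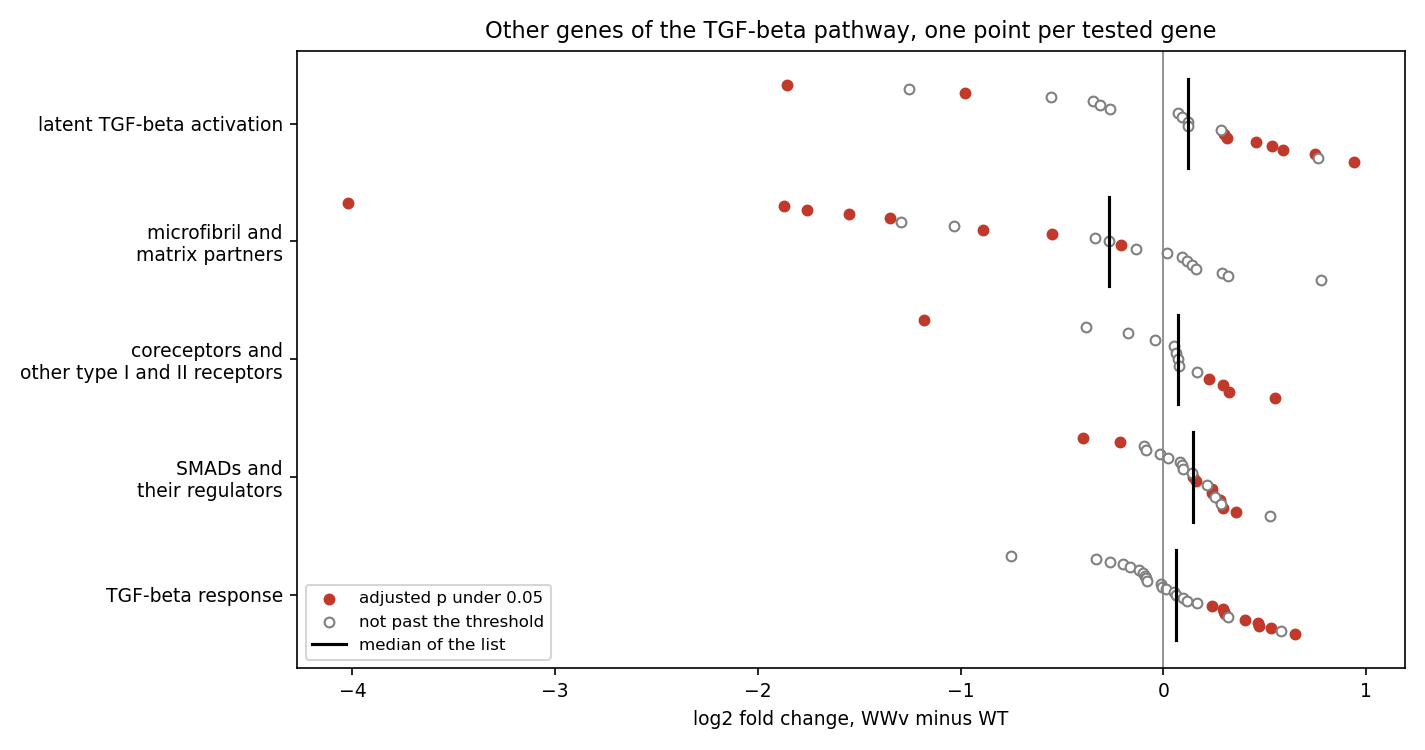
Log2 fold change, WWv minus WT, of each tested gene in 5 lists of the pathway, sorted within the list, with red points past an adjusted p of 0.05 and a black line at the median. The matrix partners have 8 red points, all left of 0, and the TGF-beta response has 9, all right of 0.

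Other cell types and the cell cycle also differed between these libraries. The counts below stand beside 12.8% higher and 15.4% lower over all tested genes. Without WT 2, 3507 genes were higher and 3620 lower of 15423 tested. Adventitial fibroblast markers fell in 5 of 9 members, with a summed level of 565 to 847 CPM in WWv and 566 to 1314 CPM in WT, WT 2 at the bottom of that range. Endothelial markers summed to 95.8 to 222 CPM in WWv and 94.5 to 343 CPM in WT, with WT 2 the highest, 1 of 8 tested members lower (Erg) and Cldn5 below 0.1 CPM. Without WT 2, 4 endothelial members were higher (Pecam1, Cdh5, Tie1 and Emcn) and the median of that list was 0.40, against −0.06 with all libraries. Cdh5 was then higher by 1.11 (edgeR adjusted p = 0.0043) and Emcn by 1.23 (adjusted p = 0.00508). Also without WT 2, fibroblast markers had 1 member higher and 6 lower, macrophage markers 2 lower and mesothelial markers 1 higher. Macrophage markers summed to 20.7 to 25.7 CPM in WWv and 20.6 to 41.3 CPM in WT, and no list of other cells had a marker at 0 in all libraries. Of 30 cell cycle genes 14 rose, 28 without WT 2 and 8 to 10 without any other library but WWv 1, and their mean level was 5.40 to 5.61 log2 CPM in WWv and 4.92 to 5.64 in WT, where WT 2 was the highest. In bulk RNA, fewer cells of a type and less RNA per cell cannot be told apart. The part of other cell types in the changes of the TGF-beta genes was not tested. WT libraries other than WT 2 had a cell cycle mean of 4.92 to 5.09 log2 CPM, below every WWv library. The score and the genotype can therefore hardly be told apart in a fit that holds both. With the cell cycle score in the fit, Tgfb3, Tgfbr1 and Tgfbr3 stayed past the threshold and Tgfb1 did not.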

How the data were processed

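Messenger RNA of cultured aortic smooth muscle cells was sequenced in 10 libraries, 5 of WWv and 5 of WT mice. The authors deposited raw counts per versioned Ensembl gene. Per the submitters' processing notes, bcl2fastq 2.17, Trim Galore 0.4.3 and STAR 2.5.2a were used with mm10; the sources used here do not give the counting tool, its strand setting or the annotation, so reads in overlapping exons are uncertain. Symbols, positions and exon lengths (the union of annotated exons) came from GENCODE M21 on GRCm38, which matched 54409 of 54446 IDs.

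From these counts, WWv was compared with WT in edgeR 4.0.16 (R 4.3.3), with quasi-likelihood tests, two-sided, group as the only term, TMM scaling and filterByExpr at a minimum count of 10. Adjusted p is Benjamini-Hochberg over all 15181 tested genes, with a threshold of 0.05. SE is the absolute log2 fold change over the square root of F. CPM is TMM-scaled. Depth was 42040255 to 53863661 counts, with a common biological coefficient of variation of 0.161. Alternatives used DESeq2 1.42.0, limma 3.58.1, other scalings and filters, a replicate block, a cell cycle score (mean log2 CPM of 30 genes) and omitted libraries. The procedure was tested on simulated data. Since the labels do not say that each library is a separate mouse, p-values measure the spread between libraries, which may be partly technical.

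The members and lists were chosen with earlier results of these data known. The rule for named genes took the 10 members, Kit and Kitl, up to 5 called genes with the largest change in each pathway list, the 2 most abundant markers of each marker list, and the 3 genes most like the members with the largest rise and fall. Others are said in the text to be chosen after their values were seen, or are listed as members of a count. Values of some genes that the rule names are not reported here.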

Additional observations from a re-analysis of the deposited data

How the results depend on the processing

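Over 19 alternatives for each of the 10 genes, no called change reversed, 179 of 190 outcomes kept their side of the threshold, 10 gained a call and 1, Tgfb1 with the cell cycle score, lost it. Higher members numbered 3 to 4 and lower members 1 to 3 when single libraries were left out. Lower members were 2 with library size only (Tgfbr3 and Ltbp3), 2 with DESeq2 and 3 without WT 2 and WWv 1 together. Over all genes, leaving out single libraries gave 3013 to 7127 calls, 1286 to 3507 higher and 1721 to 3620 lower, with the upper end each time without WT 2. Without WT 2 and WWv 1 there were 7111 calls (3361 higher, 3750 lower), with the cell cycle score 1411 (801 higher, 610 lower), and with library size only 983 higher and 3599 lower. The cause of these shifts was not tested. Among the other named genes 1 called change turned its sign, Dcn at 0.18 with the cell cycle score, where it was not called. Uncalled values near 0 changed sign as well, among them Tgfbr2, Ltbp1, Ltbp2 and Ltbp4 under some settings.

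Whether the replicate numbers in the titles pair the libraries was not settled. Deviations from the group means of same-numbered libraries correlated at −0.0920, −0.0129, 0.0368, −0.0712 and 0.308. With the replicate block there were 3636 calls, and the same 4 TGF-beta genes were called. The SE was smaller with the block for every one of the genes but Tgfb2 (0.303, against 0.291), and for Tgfbr3 it was 0.068, against 0.152. Each WWv library correlated better with a WT library of another number than with that of its own. Deviations within a group cancel out for each gene, so some library of another number nearly always correlates better. That comparison cannot tell whether the libraries are paired. Tgfb2 and Ltbp4 had the largest SE of the 10 genes (0.29 and 0.21), which limits what 5 libraries per group can show for them.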
